A study of Mus musculus with 30 samples.

Results

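Of the 12488 probe sets on the liver arrays, 10 lay at the floor of the table on all 8 vehicle arrays and above that floor on at least 20 of the 22 arrays from mice given a PPAR-alpha agonist. A probe set is a group of short probes designed to measure one transcript, and the floor is the value 50, the lowest in the table. These 10 were chosen by the measured values themselves, on agonist against vehicle, and 1 other probe set that met the same rule was left out. The livers came from male C57Bl/6 mice that received water as vehicle, or CP-775146, CP-868388 or CP-865520 at 1 mg/kg per day, for 24 h or 5 days. The compounds are piperidine agonists known here by code name. Each of the 8 groups (3 compounds and vehicle, at both times) had 4 arrays, 1 for each liver, except CP-775146 at 5 days with 2.

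PPAR-alpha is a nuclear receptor of hepatocytes that binds DNA together with the retinoid X receptor and is activated by fatty acids and by fibrate-type drugs. Its targets include enzymes of fatty acid oxidation in peroxisomes, mitochondria and microsomes, some of which are scarce in the fed mouse liver and abundant after an agonist. In rodents, sustained activation also enlarges the liver and multiplies its peroxisomes. Whether the 10 probe sets measure any of these targets cannot be said here. The table and the reference tables used pair no probe set with a gene. The 10 are therefore given by ID, and neither their roles nor the liver's marker genes were examined. In the manufacturer's naming, the letters F and S in 97352_F_AT and 102921_S_AT mark probe sets whose probes can match more than one related transcript.

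In whole liver RNA, fewer cells of a type and less RNA per cell cannot be told apart. Array means ran from 314.1 to 318.2, and between 5600 and 6741 probe sets per array lay above the floor. The Gapdh ratio, log2 of the signal at the 5' end of the Gapdh transcript over that at its 3' end, falls when RNA is degraded or incompletely labelled, and was under -0.4 on 3 arrays. These were replicates 1 (-0.55) and 3 (-0.55) of CP-868388 and replicate 4 (-0.45) of CP-865520, all at 24 h. Results at 24 h are therefore given with and without these arrays where a call depended on them. The same ratio for beta-actin was lowest on replicate 1 of CP-865520 at 5 days (-1.62), whose Gapdh ratio of -0.30 was above the cut.

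Being at the floor under vehicle was common, and rising above it on nearly every agonist array was not. On all 8 vehicle arrays, 4462 probe sets other than controls were at the floor. Of these, 3953 stayed at the floor on all 22 agonist arrays, 337 rose above it on 1 or 2, and 43 did so on 10 or more. Among the 10 described here, 4 were above the floor on all 22 agonist arrays (103944_AT, 97352_F_AT, 97379_AT and 98963_AT), 3 on 21 and 3 on 20. Just outside the rule, 161989_F_AT and 99157_AT were above the floor on 19 agonist arrays, with medians over the agonist arrays of 125.5 and 96, and 3 more were above it on 18. Just inside it, 102016_AT, 160247_AT and 101588_AT were above the floor on 20, with medians of 126, 78.5 and 64.5. A further 3 probe sets, above the floor on 20 agonist arrays, missed the rule by 1 vehicle array, whose value was 51, 56 or 82.

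**Figure D1:**
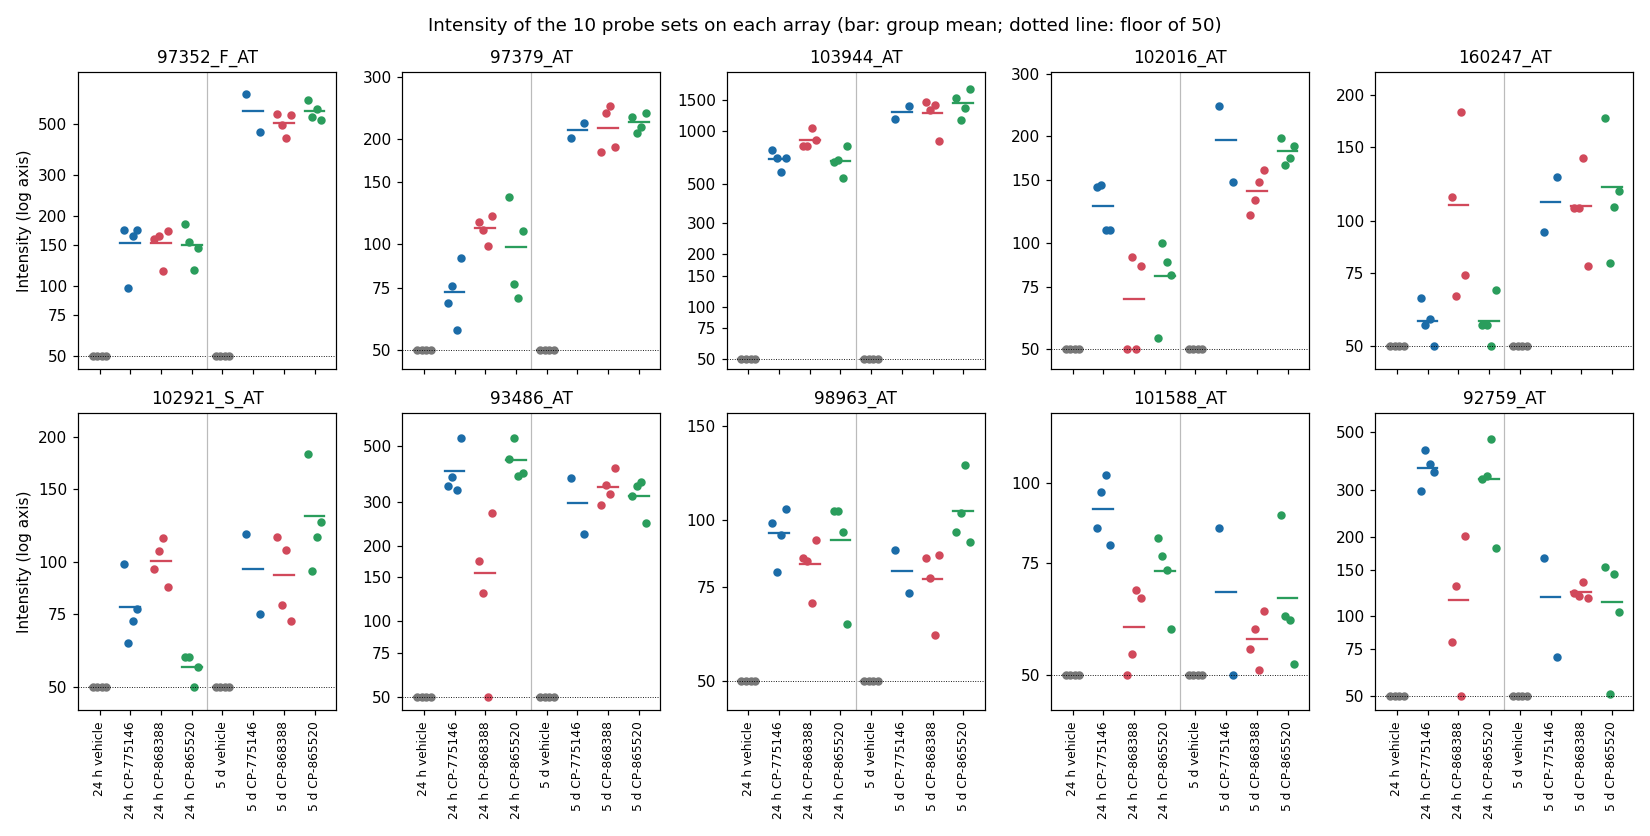
Intensity of each of the 10 probe sets (log axis) on every array, grouped by time and treatment; points are arrays, bars are group means and the dotted line is the floor of 50. All vehicle arrays lie on the floor by the rule, and the agonist arrays of 103944_AT lie between 539 and 1747.

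The distance from the floor varied widely among the 10. In 4 of them (103944_AT, 97352_F_AT, 93486_AT and 92759_AT) the highest agonist group mean was at least 5 times the floor. In 6 of them the lowest agonist group mean was under 100, less than 2 times the floor. The vehicle level of each is known only to be no higher than 50. A ratio to the floor is therefore a lower bound on the fold where every agonist array of the group was above the floor. Of the 220 agonist values of the 10, 9 were at the floor, and the means of those groups may themselves be too high. For the dim ones, a transcript absent under vehicle and one that lay just below the floor cannot be told apart. Since the rule used this contrast, the values below describe agonist against vehicle without a test, and tests are given only for differences among the agonist groups. These used limma on log2(intensity + 50) over the 22 agonist arrays and 7561 probe sets. Called means an adjusted p under 0.05 (Benjamini-Hochberg over all 7561). Log2 differences on this scale understate changes near the floor.

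The probe set 103944_AT stood farthest above the floor. At 24 h its intensity was 787, 708, 584 and 703 under CP-775146, 822, 823, 1039 and 894 under CP-868388, and 672, 686, 539 and 827 under CP-865520. After 5 days it was 1172 and 1389 under CP-775146, 1468, 1330, 1411 and 879 under CP-868388, and 1549, 1155, 1351 and 1747 under CP-865520. Under CP-775146 and CP-865520 the 5-day arrays were all above the 24 h arrays, while under CP-868388 the lowest 5-day array fell within the 24 h range. As group means, these were increases of at least 13.9-fold, 17.9-fold and 13.6-fold at 24 h for CP-775146, CP-868388 and CP-865520. At 5 days the bounds were 25.6-fold, 25.4-fold and 29.0-fold in the same order. From 24 h to 5 days the log2 difference was 0.84 ± 0.19 (SE, adjusted p = 0.00311) under CP-775146 and 1.04 ± 0.15 (5.4e-05) under CP-865520. Under CP-868388 it was 0.47, which did not pass (adjusted p = 0.0712). The CP-775146 call was lost without the second of its 5-day arrays (0.72, adjusted p = 0.0867), a fit in which the remaining array has no spread of its own and that of the other groups stands in for it.

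The largest change with time was in 97352_F_AT, one of the probe sets that can match several related transcripts. At 24 h it read 174, 98, 164 and 175 under CP-775146, 159, 165, 116 and 172 under CP-868388, and 186, 155, 117 and 146 under CP-865520. After 5 days the values were 668 and 461, then 548, 492, 433 and 545, then 633, 536, 577 and 519, in the same order of compounds. Every 5-day array was above every 24 h array. The group means rose 3.70-fold under CP-775146, 3.30-fold under CP-868388 and 3.75-fold under CP-865520. On the log2 scale the differences were 1.60 ± 0.18, 1.45 ± 0.15 and 1.62 ± 0.15 (SE), with adjusted p = 9.37e-06, 5.31e-06 and 3.42e-07. The 3 compounds gave nearly the same group means at 24 h, 153, 153 and 151 (SD 36.8, 25.2 and 28.4, n = 4 each).

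In 97379_AT the rise with time was also called under all 3 compounds. Its 24 h values were 68, 76, 57 and 91 under CP-775146, 116, 110, 99 and 120 under CP-868388, and 136, 77, 70 and 109 under CP-865520. The 5-day values were 201 and 222, then 183, 237, 248 and 189, then 230, 208, 216 and 237, again with no overlap with 24 h. Group means rose 2.90-fold, 1.93-fold and 2.27-fold. The log2 differences were 1.09 ± 0.16, 0.71 ± 0.13 and 0.90 ± 0.13 (SE), with adjusted p = 0.000115, 0.00218 and 3.76e-05 for CP-775146, CP-868388 and CP-865520.

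Another probe set with a higher mean at 5 days under each compound, 102016_AT, passed the test for 2 of the 3. Under CP-775146 it was at 144, 146, 109 and 109 at 24 h and at 243 and 148 after 5 days. Under CP-868388 it was at 50, 91, 50 and 86 and then at 120, 132, 148 and 161, and under CP-865520 at 54, 100, 88 and 81 and then at 198, 166, 174 and 187. The 24 h and 5-day arrays did not overlap within any compound, although under CP-775146 the gap was from 146 to 148. The log2 change was 0.83 ± 0.15 (SE, adjusted p = 0.000268) under CP-865520, 0.69 ± 0.15 (0.00721) under CP-868388 and 0.45 (0.072) under CP-775146. Replicates 1 and 3 of CP-868388 at 24 h, the arrays at the floor, were also those with the low Gapdh ratio. Without the 3 arrays of low ratio the CP-868388 change was 0.45 and the call was lost (adjusted p = 0.124).

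The dimmer probe sets 102921_S_AT and 160247_AT rose with time under CP-865520. For 102921_S_AT the CP-865520 arrays were at 59, 59, 50 and 56 at 24 h and at 182, 95, 115 and 125 after 5 days, a log2 change of 0.74 ± 0.13 (SE, adjusted p = 0.000314). For 160247_AT they were at 56, 56, 50 and 68 and then at 176, 79, 108 and 118, a log2 change of 0.64 ± 0.18 (adjusted p = 0.0108). Neither passed under CP-775146 (0.18 and 0.58, adjusted p = 0.457 and 0.0628) or CP-868388 (-0.08 and 0.03, adjusted p = 0.8 and 0.989). In 160247_AT the call was lost without replicate 1 of CP-865520 at 5 days (0.49, adjusted p = 0.0512). That array gave the highest 5-day CP-865520 reading in both probe sets and had the lowest beta-actin ratio of all arrays (-1.62). With RNA integrity as a covariate both CP-865520 calls passed (0.70 for 102921_S_AT, adjusted p = 0.00101, and 0.47 for 160247_AT, 0.0256). Under CP-868388 all arrays of both were above the floor at 24 h. The arrays read 96, 106, 114 and 87 for 102921_S_AT and 114, 66, 182 and 74 for 160247_AT at 24 h, and 115, 79, 107 and 72 and 107, 107, 141 and 78 after 5 days. In 160247_AT the 24 h readings of 114 and 182 were on replicates 1 and 3, which had the low Gapdh ratio. The other readings, 66 and 74, were close to the highest at 24 h under CP-865520, 68. Under CP-775146 the readings were 99, 64, 72 and 77 and then 117 and 75 for 102921_S_AT, and 65, 56, 58 and 50 and then 94 and 127 for 160247_AT.

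A different course was seen in 92759_AT, which was high at 24 h and lower at 5 days under 2 of the compounds. Its 24 h values were 298, 425, 376 and 351 under CP-775146 and 332, 338, 469 and 182 under CP-865520. After 5 days they were 166 and 70, and 153, 51, 145 and 104. The times did not overlap within either compound. Group means fell from 362.5 ± 52.9 (SD, n = 4) to 118 ± 67.9 (n = 2) under CP-775146 and from 330 ± 117 to 113 ± 46.7 (n = 4 each) under CP-865520. The log2 changes were -1.35 ± 0.34 and -1.21 ± 0.28 (SE), with adjusted p = 0.00623 and 0.00202. Under CP-868388 the values were 80, 130, 50 and 202 at 24 h and 123, 119, 135 and 117 at 5 days, with a change of 0.15 (adjusted p = 0.827). The call for CP-775146 was lost without the second of its 5-day arrays (-0.92, adjusted p = 0.198).

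The probe set 93486_AT was also low under CP-868388 at 24 h, but stayed well above the floor at 5 days. It read 175, 130, 50 and 271 under CP-868388 at 24 h and 291, 352, 322 and 412 after 5 days, so that every 5-day array was higher, with a log2 change of 1.04 ± 0.25 (SE, adjusted p = 0.0135). Under CP-775146 it read 347, 379, 334 and 543, then 374 and 223, and under CP-865520 446, 542, 381 and 393, then 316, 347, 361 and 247. These changes of -0.38 and -0.42 did not pass (adjusted p = 0.39 and 0.219). The CP-868388 call was lost without the 3 arrays of low Gapdh ratio (0.70, adjusted p = 0.0857), with RNA integrity as a covariate (0.69, 0.13) and when no other groups entered the fit (adjusted p = 0.0706).

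The last 2 probe sets, 101588_AT and 98963_AT, stayed within about the same low range at both times, and neither passed the test of time under any compound. In 101588_AT the values were 85, 97, 103 and 80 under CP-775146 at 24 h and 85 and 50 at 5 days. Under CP-868388 they were 50, 54, 68 and 66, then 55, 59, 51 and 63, and under CP-865520 82, 77, 73 and 59, then 89, 62, 61 and 52. The highest group mean was 1.82 times the floor and the lowest 1.14 times. Under CP-775146 the log2 change of 101588_AT was -0.28, with a 95% interval from -0.53 to -0.03 (adjusted p = 0.0935). In 98963_AT the 22 agonist arrays lay between 61 and 127, with a median of 89.5, and the group means between 77.5 ± 11.6 (CP-868388, 5 days) and 104 ± 16.1 (CP-865520, 5 days; SD, n = 4 each). With 95% intervals of the log2 change from -0.41 to 0.12, from -0.28 to 0.16 and from -0.09 to 0.34, a change of 2-fold on that scale between 24 h and 5 days lay outside the interval for 98963_AT under each compound.

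Counted together, 7 of the 10 were called higher at 5 days than at 24 h under at least 1 compound, against 16.9% of all tested probe sets. Under all 3 compounds 2 of them were, 97352_F_AT and 97379_AT, against 0.992% of all tested. One, 92759_AT, was called lower under at least 1 compound, against 27% of all tested. By compound, CP-775146 had 3 calls upward, where 8.4% of all tested were called upward, and 1 downward, where 18.6% were (27% in either direction). Under CP-868388, 4 were called higher, against 4.99% of all tested, and none lower, against 2.7% (7.68% in either direction). Under CP-865520, 6 were called higher, against 10.8%, and 1 lower, against 22% (32.8% in either direction). Without the 3 arrays of low Gapdh ratio the CP-868388 count was 2. The median log2 change of the 10 was 0.32, 0.31 and 0.69 for CP-775146, CP-868388 and CP-865520, against -0.02, 0.02 and -0.05 over all tested. The vehicle arrays cannot show a shift between the times in these probe sets, as all were at the floor at both.

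**Figure D2:**
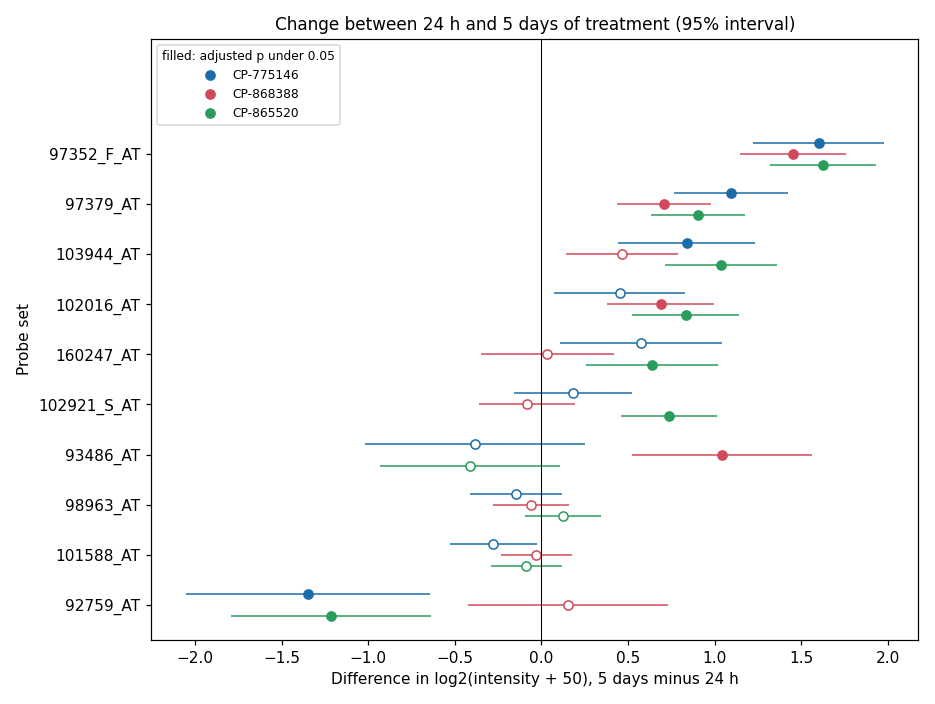
Difference in log2(intensity + 50) between 5 days and 24 h (x axis) for each probe set (y axis) under each compound, with 95% intervals; filled points passed an adjusted p of 0.05. Of the 10, 97352_F_AT and 97379_AT have filled points to the right of 0 for all 3 compounds, and 92759_AT lies to the left for CP-775146 and CP-865520.

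The compounds were compared with each other at the same dose and time, in 6 pairs. At 24 h, no difference between CP-775146 and CP-865520 was detected in the 10. None was called between them by limma, against 0.476% of all tested, and 1 (102016_AT, 0.44 higher under CP-775146, adjusted p = 0.178) had an unadjusted p under 0.05. All 10 intervals of the difference lay within 2-fold on the log2(intensity + 50) scale, and 8 did with a pseudocount of 1, which compresses the dim values less. A miss of the threshold does not show that these compounds act alike.

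CP-868388 stood apart from both at 24 h, and most clearly in 92759_AT and 93486_AT. In 92759_AT its mean of 115.5 ± 66.4 compared with 362.5 ± 52.9 under CP-775146 and 330 ± 117 under CP-865520 (SD, n = 4 each). The log2 difference was 1.40 ± 0.28 (SE, CP-775146 minus CP-868388, adjusted p = 0.00364) and -1.23 ± 0.28 (CP-868388 minus CP-865520, adjusted p = 0.00405). In 93486_AT its mean of 156.5 ± 92.2 compared with 401 ± 96.7 and 440.5 ± 73.3, with log2 differences of 1.22 ± 0.25 (adjusted p = 0.00428) and -1.36 ± 0.25 (0.00115). No array of CP-868388 reached the lowest array of CP-775146 in either probe set, but in 92759_AT its highest array (202) exceeded the lowest of CP-865520 (182).

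Within CP-868388, the readings of 92759_AT ran in the order of the Gapdh ratio. Those of 93486_AT did so except for replicates 1 and 2. In both probe sets, replicate 4 was the highest array of CP-868388 and replicate 3, at the floor, the lowest. Their Gapdh log2 ratios were -0.13 and -0.55, with -0.55 for replicate 1 and -0.19 for replicate 2. Replicates 1 and 2 read 80 and 130 in 92759_AT, but 175 and 130 in 93486_AT, where the array of lower ratio gave the higher reading. The lowest CP-865520 array in 92759_AT, replicate 4 at 182, had a ratio of -0.45, and its reading in 93486_AT, 393, was within the range of the other CP-865520 arrays. The mean ratio was -0.36 ± 0.23 (SD, n = 4) under CP-868388, 0.03 ± 0.07 under CP-775146 and -0.05 ± 0.27 under CP-865520. Without the 3 arrays of low ratio, CP-868388 was still lower than CP-865520 in 92759_AT (-0.998, adjusted p = 0.036) and 93486_AT (-1.06, 0.0173). Against CP-775146 the differences were then 0.94 and 0.88 and did not pass (adjusted p = 0.0895 and 0.0812), with 2 arrays of CP-868388 left. With the integrity covariate, which is built from the Gapdh, beta-actin and pyruvate carboxylase control ratios, the difference from CP-865520 in 93486_AT passed (-1.03, adjusted p = 0.0292), and the other 3 did not (0.89 and 0.85 against CP-775146, adjusted p = 0.205 and 0.21, and -0.79 for 92759_AT against CP-865520, 0.0853).

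**Figure D3:**
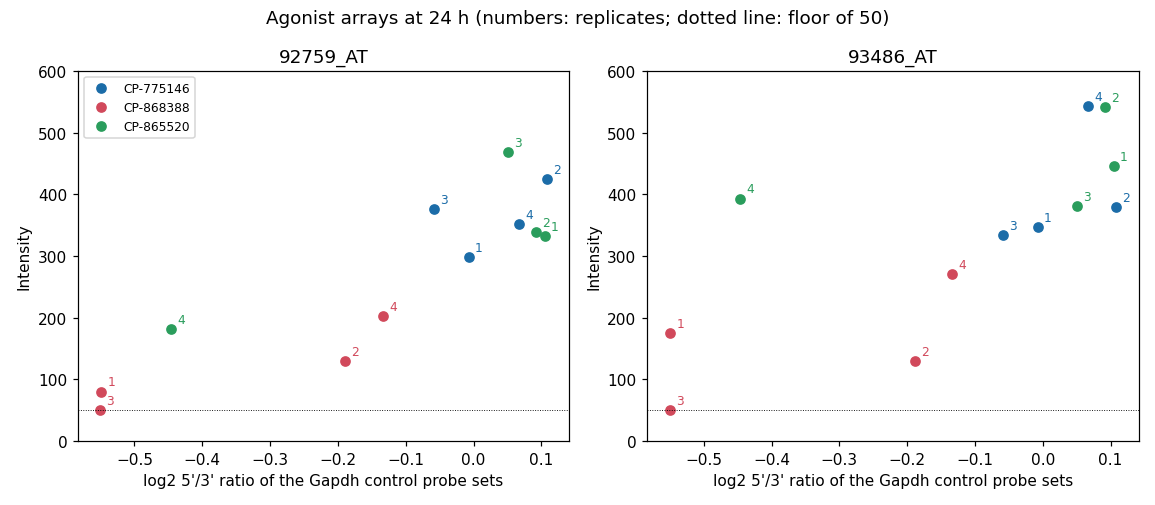
Intensity of 92759_AT and 93486_AT (y axis) on the agonist arrays at 24 h against the log2 5'/3' ratio of the Gapdh control probe sets on the same array (x axis); points are arrays, labelled by replicate and coloured by compound. The 4 CP-868388 arrays have ratios from -0.55 to -0.13 and the lowest intensities of 93486_AT.

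Other differences of CP-868388 at 24 h were smaller. Relative to CP-868388, CP-775146 gave higher readings of 102016_AT (0.58, adjusted p = 0.0145) and 101588_AT (0.37, 0.0177) and a lower one of 97379_AT (-0.40, 0.0449). Against CP-865520, CP-868388 was higher in 102921_S_AT (0.51 ± 0.13 SE, adjusted p = 0.0101), with no overlap of arrays and the call kept in 32 of 34 alternative settings. It was also higher in 160247_AT (0.51, 0.0426), where the arrays overlapped. Without replicate 3 of CP-868388, which read 182, that difference was 0.31 and was not called (adjusted p = 0.192). Of these, 97379_AT (adjusted p = 0.0875) and 160247_AT (0.122) were not called when p was adjusted over all 6 pairs together. Among the 34 alternative settings, 16 lost the first (adjusted p at most 0.301) and 12 the second (at most 0.564). Without replicate 1 or 3 of CP-868388 the call in 102016_AT was lost (0.50 each time, adjusted p = 0.0536 and 0.0665), and without replicate 1 that in 101588_AT (0.33, 0.0622), which was also lost without replicate 2 (0.35, 0.0511) or 3 (0.33, 0.0627) of CP-775146. Without the 3 arrays of low ratio, none of these 5 passed, though not all of the differences moved. Those of 101588_AT (0.36, adjusted p = 0.15), 97379_AT (-0.43, 0.229) and 102921_S_AT (0.47, 0.113) were about as large as with all arrays. Those of 102016_AT (0.35, 0.364) and 160247_AT (0.21, 0.487) were smaller.

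In all, 5 of the 10 differed between CP-775146 and CP-868388 at 24 h, 4 with the higher level and 1 with the lower level under CP-775146, against 15.4% of all tested. For CP-868388 and CP-865520 the number was 4, 2 in each direction, against 28.1% of all tested, or 3 higher and 2 lower with each array centred on its median. The first count was 2 without replicate 1 of CP-868388 and 3 without its replicate 3 or without replicate 2 or 3 of CP-775146. Without the 3 arrays of low ratio the counts were 0 and 2, and with the integrity covariate 0 and 1. The probe set 97352_F_AT was among those not called in any pair, with intervals from -0.32 to 0.29 (CP-775146 minus CP-868388) and from -0.29 to 0.32 (CP-868388 minus CP-865520).

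**Figure D4:**
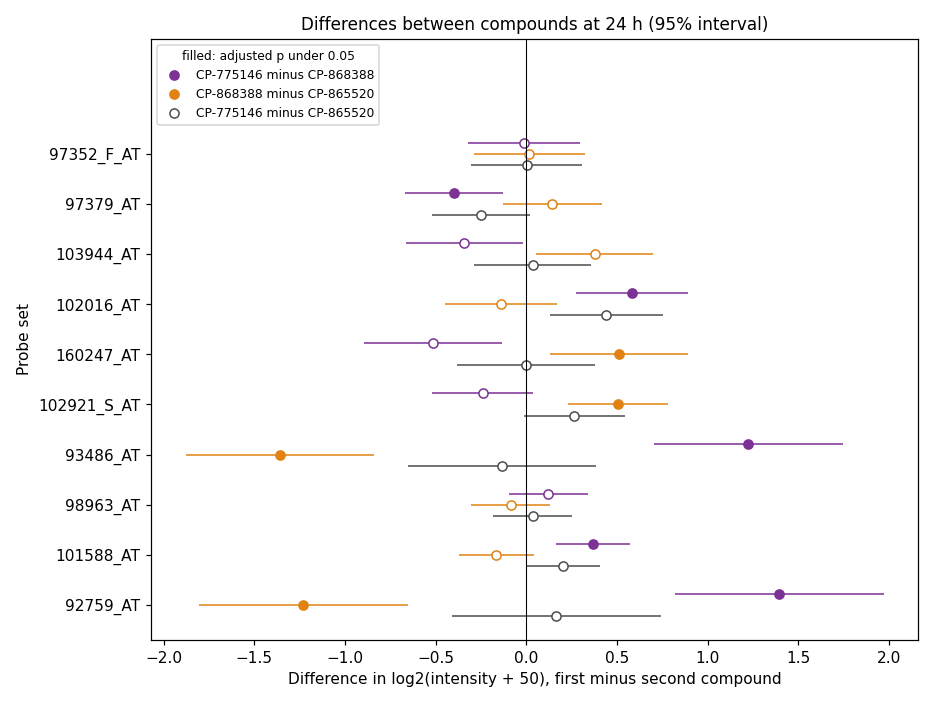
Difference in log2(intensity + 50) between compounds at 24 h (x axis) for each probe set (y axis), with 95% intervals; filled points passed an adjusted p of 0.05. The differences of 92759_AT and 93486_AT that involve CP-868388 lie farthest from 0, between 1.22 and 1.40 for CP-775146 minus CP-868388.

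After 5 days none of the 10 was called between any pair of compounds. The whole table held few calls by then, at 0.0529% of probe sets between CP-775146 and CP-868388, 0.0132% between CP-775146 and CP-865520 and 0% between CP-868388 and CP-865520, where 571 of 7561 had an unadjusted limma p under 0.05. Among the 10, the unadjusted p was under 0.05 for 0, 0 and 2 in these pairs. Those 2, 102921_S_AT (-0.31) and 98963_AT (-0.27), were lower under CP-868388 than under CP-865520, with adjusted p = 0.611 and 0.572. In 92759_AT and 93486_AT the 5-day means of the 3 compounds were 118, 123.5 and 113 and 298.5, 344 and 318, for CP-775146, CP-868388 and CP-865520. Across the 3 pairs, all 30 intervals lay within 2-fold on the log2(intensity + 50) scale, and 25 did with a pseudocount of 1. The 2 arrays of CP-775146 limit what could be detected in its pairs.

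**Figure D5:**
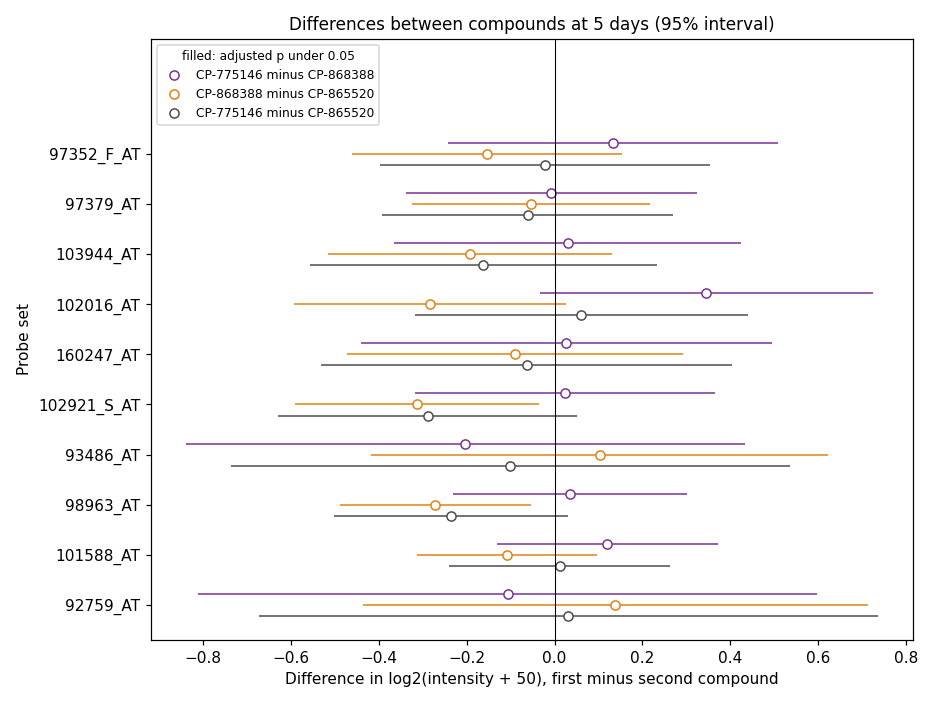
Difference in log2(intensity + 50) between compounds at 5 days (x axis) for each probe set (y axis), with 95% intervals; open points did not pass an adjusted p of 0.05. All 30 points are open, and all 30 intervals lie between -1 and 1.

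Whether the change with time itself differed between compounds was tested as an interaction. For CP-868388 and CP-865520 it was called in 3 of the 10, against 17.9% of all tested. These were 93486_AT (1.46 ± 0.35 SE, CP-868388 change minus CP-865520 change, adjusted p = 0.0115), 92759_AT (1.37 ± 0.39, 0.024) and 102921_S_AT (-0.82 ± 0.19, 0.00887). For CP-775146 and CP-868388 it was called in 2, 93486_AT (-1.43 ± 0.39, adjusted p = 0.0386) and 92759_AT (-1.50 ± 0.44, 0.0442), against 7.12% of all tested. Between CP-775146 and CP-865520 none was called, against 0.0132% of all tested, and by limma 1 (102921_S_AT, -0.55) had p under 0.05 before adjustment. The calls of 92759_AT and 93486_AT between CP-775146 and CP-868388 were lost in 19 and 14 of 34 alternative settings, among them no filter, quantile normalization and the replicate block. Leaving out any 1 of 8 arrays ended both. They were replicates 2, 3 and 4 of CP-775146 and 1 and 3 of CP-868388 at 24 h, and replicate 2 of CP-775146 and 2 and 4 of CP-868388 at 5 days. Without replicate 2 of CP-775146 at 5 days the differences were -1.08 (adjusted p = 0.397) and -1.11 (0.343). Without the 3 arrays of low ratio, 93486_AT (1.17, adjusted p = 0.0353) and 102921_S_AT (-0.78, 0.0486) still passed against CP-865520 and 92759_AT did not (1.14, 0.0537), and neither passed against CP-775146 (92759_AT, -1.05, 0.157; 93486_AT, -1.09, 0.12). With the integrity covariate none of these 5 passed, and their sizes changed unequally. The difference of 102921_S_AT was -0.70 (adjusted p = 0.135), near its value without the covariate. Against CP-865520, 92759_AT was at 0.67 (0.416) and 93486_AT at 0.95 (0.23), and against CP-775146 they were at -0.91 (0.406) and -0.99 (0.355).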

How the data were processed

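The authors deposited 1 table of intensities on a linear scale, with 12488 probe sets and 30 arrays. Per the submitters' processing notes, MAS5 was used. How the floor arose and which version was run is not stated in the sources used here. Values ran from 50 to 29064, and 50.3% were 50. Groups came from the array titles. An array stands for 1 mouse, going by the number of mice per group in the study's design text. The p-values weigh a difference against the spread between arrays within agonist groups, which limma pools over the groups and adjusts using all tested probe sets. The number of arrays limits the precision.

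The members and all lists were chosen with earlier results of these data known. Differences among agonist groups were fitted with limma 3.58.1 in R 4.3.3 (lmFit, eBayes with an intensity trend) on log2(intensity + 50). All 22 agonist arrays entered the fit; the vehicle arrays did not, since the rule leaves them no spread. The 66 control probe sets were left out, and 7561 probe sets above the floor on at least 2 agonist arrays were tested, two-sided. The procedure was tested on simulated data, with changes planted only in bright probe sets. Recovery of changes near the floor, where several of the 10 lie, was not tested. All 10 members passed the filter, as the rule requires, and are named. The planned gene lists, marker checks, comparisons of pathway genes with vehicle and promoter motifs need gene names and were not run. Plots were drawn with matplotlib 3.10.9.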

Additional observations from a re-analysis of the deposited data

Results flagged for a closer look

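Among 50 groups of 4 arrays, 1 held an array that stood far from the others. This was 97352_F_AT under CP-775146 at 24 h, where replicate 2 read 98 and the other 3 between 164 and 175. Such a gap is found by chance in about 1 of 20 groups.

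The change from 24 h to 5 days differed between compounds in 5 cases, given here on the log2(intensity + 50) scale. For CP-775146 minus CP-868388 the difference was -1.50 in 92759_AT and -1.43 in 93486_AT. For CP-868388 minus CP-865520 it was 1.37 in 92759_AT, 1.46 in 93486_AT and -0.82 in 102921_S_AT. In 92759_AT and 93486_AT, the low 24 h readings of CP-868388 were on arrays with lower Gapdh 5'/3' ratios than those of CP-775146, and the part of RNA integrity beyond the values given in the report was not tested.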

How the results depend on the processing

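Of 29 calls of a member in a comparison, 11 were kept in all 34 alternatives run, and none of the 29 reversed. Those kept include 97352_F_AT and 97379_AT for time under each compound. The count of calls for CP-775146 minus CP-868388 in the change with time went from 2 to 1 with a pseudocount of 1 or with only the compared groups, and to 0 with no filter, quantile normalization, the replicate block, the integrity covariate or without the arrays of low Gapdh ratio. With the integrity covariate the counts were 0 for CP-775146 minus CP-868388 and 1 for CP-868388 minus CP-865520 at 24 h, and 0 for the latter in the change with time. Without the arrays of low ratio they were 0 and 2 at 24 h, and 2 for time under CP-868388. With all 30 arrays, 7 were called for time under CP-775146; the vehicle arrays have no spread here. Quantile normalization gave 2 higher and 2 lower for CP-868388 minus CP-865520 in the change with time, and moved the median over all probe sets for that pair at 24 h from -0.10 to -0.01.

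Leaving out 1 array at a time gave 3 to 5 calls for time under CP-775146, 4 to 5 under CP-868388 and 6 to 7 under CP-865520. For the pairs at 24 h it gave 2 to 5 (CP-775146 minus CP-868388), 3 to 5 (CP-868388 minus CP-865520) and 0 (the third pair), and 0 in each pair at 5 days. For the change with time it gave 0 to 2, 2 to 4 and 0 in the same order. Of these, the range from 0 to 2 held the most losses: 8 single arrays ended both calls, among them replicates 1 and 3 of CP-868388 at 24 h.

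The replicate numbers recur in each group. Same-numbered arrays deviated together (r over 0.1 for every number) in 0 of 15 pairs of agonist groups, with r from -0.37 to 0.44. As this asks for every number of a pair, it cannot exclude that some same-numbered arrays were handled together. With the replicate block, 97379_AT was no longer called between CP-775146 and CP-868388 at 24 h (adjusted p = 0.0618), nor were the 2 calls for that pair in the change with time (0.0823 and 0.0574). A rule that asks for all 22 agonist arrays leaves 4 members, at least 18 gives 15, and 7 of 8 vehicle arrays at the floor gives 13. Pathway genes against vehicle, with their other settings, could not be run without gene names.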
